A study of Rattus norvegicus with 4 samples.

Results

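Pancreatic islets are dissociated from a gland that consists mostly of acinar tissue, so islet RNA can carry transcripts of the digestive enzymes. The genes described here are 35 listed genes of the acinar cell. They cover trypsinogens, chymotrypsinogens, elastases, carboxypeptidases, amylases, lipases, nucleases, proteins of the secretory granule and the cell surface, a trypsin inhibitor and the transcription factors of the acinar programme. Members were taken by gene name, as all probes of the array that carry one of the 35 names and are no control spots. Of the 35 genes, 31 had a probe, out of 26688 genes or unnamed probes on the array, and 30 passed the filter on dim probes. Prss2, Try4, Try5 and Amy2a3 had no probe under those names. Klk1 was not well above background in any of 8 channels and was not tested.

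Acinar cells make digestive proteases, amylase, lipases and nucleases, store them in zymogen granules and release them into the ducts when cholecystokinin or acetylcholine raises calcium. The proteases are made as inactive zymogens, and trypsin, once activated by enterokinase in the gut, activates the rest. The trimeric complex PTF1, which holds Ptf1a and Rbpjl, drives the enzyme genes, and Bhlha15 (Mist1) organises the secretory machinery.

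The animals were Sprague Dawley rats. In the 4 samples with intrauterine growth restriction (IUGR), the uterine arteries of the dam had been ligated on both sides on embryonic day 18, and sham surgery preceded the 4 control samples. Islets were collected at postnatal day 14 in both groups, and total RNA was extracted with TRIzol, amplified as cDNA and labelled with Cy3 or Cy5. Each of 4 arrays on 1 slide held 1 IUGR and 1 control sample. On array 1, IUGR replicate 2 was set against control replicate 1. On array 2, it was IUGR replicate 1 against control replicate 2. Both carried IUGR in Cy5. With IUGR in Cy3, array 3 compared IUGR replicate 4 to control replicate 3, and array 4 compared IUGR replicate 3 to control replicate 4. The labels call the samples biological replicates but give no sex, litter or number of animals per sample, so p-values measure the spread between these samples.

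The median signal of a channel ran from 105 to 823 intensity units. The log2 ratio of the channel medians, IUGR over control, was 1.68 on array 1 and -1.58, -2.42 and -1.55 on the other 3. The signal of no member spot was marked as an outlier and 0 spots were saturated. The local background of Ctrb1 and of Cpb1 was marked as outlying on an array and was set to the channel median. The 13 beta cell markers with a probe, among them Ins1, Ins2, Pdx1 and Mafa, were well above background in all 8 channels. In the limma fit with a dye term, 0 of 20160 genes or unnamed probes were called at an adjusted p under 0.05 (percent called 0), with 1435 at an unadjusted p under 0.05 that were higher in IUGR (7.12%) and 1325 that were lower (6.57%). The smallest adjusted p was 0.339. The number of arrays limits the precision of every value given.

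The 31 genes were read by 34 probes of 60 bases, with 1 spot each, and 32 of the probes had an accession in the RefSeq table of assembly GRCr8. Try10, Amy2 and Spink3 each had 2 probes. The symbol has changed since the array was designed for several members. The Prss3 probe carries the accession of RefSeq Prss3b, the Amy2 probes that of Amy2a3, the Amy1a probe that of Amy1, a Spink3 probe that of Spink1 and the Klk1 probe that of Klk1c12. The proteases and amylases include families of related genes, and a probe may also bind the transcript of a related gene, which was not tested. The probes below belong to the 5 members with the largest array 3 ratios, Amy2, Pnlip, Amy1a, Ctrc and Cela1, and to Gp2, whose mean was below 0 in every setting tried. They are given 5′ to 3′ on the strand of the transcript, with the coordinates of the array design on rn4, and each has at least 1 reading frame without a stop codon. A span above the probe's own length means that the probe crosses at least 1 intron.
Amy2, second probe, chr2:209518334-209518393, minus strand: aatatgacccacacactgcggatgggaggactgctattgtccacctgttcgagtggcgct
Amy1a, chr2:209553111-209553263, minus strand: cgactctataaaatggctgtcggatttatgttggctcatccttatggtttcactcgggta
Pnlip, chr1:265114441-265116798, plus strand: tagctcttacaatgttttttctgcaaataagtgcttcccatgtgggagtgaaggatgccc
Ctrc, chr5:160752014-160752073, minus strand: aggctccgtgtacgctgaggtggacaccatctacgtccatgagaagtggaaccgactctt
Cela1, chr7:139446078-139447892, minus strand: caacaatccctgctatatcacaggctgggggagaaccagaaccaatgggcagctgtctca
Gp2, chr1:177714482-177714541, minus strand: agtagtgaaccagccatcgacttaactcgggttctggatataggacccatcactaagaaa

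Acinar transcripts were present in all 8 islet samples, and their level differed more between samples of the same group than between the groups. For 29 of the 30 tested members the probe was well above background in every channel, and Dnase1 was above it in 2 IUGR and 3 control channels. A level is the log2 intensity of a channel after loess and between-array quantile normalization of mean intensity (Aquantile), and is compared only within a probe. Relative to each probe's mean over the 8 samples, the median of the 30 members was 0.82 in IUGR replicate 4, 0.77 in control replicate 4 and 0.60 in IUGR replicate 3. It was -0.04 in control replicate 2, -0.16 in IUGR replicate 1, -0.49 in IUGR replicate 2, -0.71 in control replicate 3 and -0.91 in control replicate 1. Each group thus held samples with high and with low levels of the acinar genes, and the groups overlapped for all 30 members. Each sample was on 1 array only, so a difference between samples and a difference between arrays cannot be told apart in these levels. Among all genes, the 4 IUGR levels lay all above the control levels in 1.38% and all below in 1.63%. In bulk RNA, more acinar cells in a preparation and more RNA per acinar cell cannot be told apart.

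**Figure D1:**
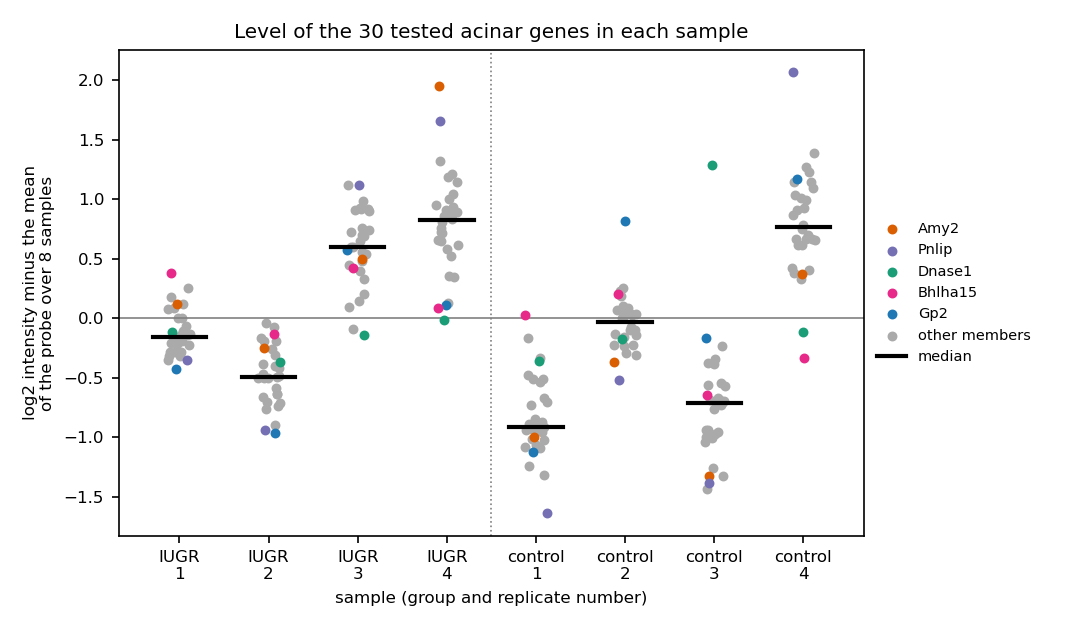
Log2 intensity of the 30 tested acinar genes in each of the 8 samples, minus the mean of the probe over the samples (vertical axis). Points are genes, and horizontal bars are medians over genes. IUGR replicates 3 and 4 and control replicate 4 have medians between 0.60 and 0.82, and control replicates 1 and 3 have -0.91 and -0.71, with each group spanning high and low samples.

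The members were high and low in the same samples. The highest of the 8 levels was that of IUGR replicate 4 in 14 members (9.44% of all genes), of control replicate 4 in 10, of IUGR replicate 3 in 5 and of control replicate 3 in 1, Dnase1. The lowest was that of control replicate 1 in 15 members and of control replicate 3 in 14 (21.3% of all genes). The difference between the highest and the lowest sample ran from 1.07 for Bhlha15 to 3.71 for Pnlip, with a median of 2.00 over the members. The median SD between replicates was 0.67 within IUGR and 0.77 within control, against 0.16 and 0.18 over all genes tested. The median size of the difference between group means was 0.39 for the members and 0.14 for all genes. It was smaller than the SDs of both groups in 22 of the 30 members (73.3%) and in 47% of all genes. These SDs hold any difference between the arrays as well.

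After loess and Aquantile, both samples of array 4 had high and both samples of array 1 had low levels of the acinar genes. The medians of the 2 samples' mean were 0.71 and -0.71, whereas arrays 2 and 3 were at -0.09 and -0.02. Array 3 joined the sample highest in the most members to one of the low samples. How a sample was placed changed with the normalization. With median centring within arrays in place of loess, control replicate 4 was highest at 1.19 and control replicate 1 lowest at -1.35. IUGR replicate 4 was then at 0.24 and control replicate 3 at -0.25. With each channel less its own median and no further normalization, the same 4 samples were at 1.13, -1.35, 0.17 and -0.40. In the same order of alternatives, IUGR replicate 2, of array 1, was at -0.08 and -0.15, and control replicate 2 was at 0.30 and 0.34. Both alternatives for the levels were chosen after the data were seen.

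The mean log2 ratio of IUGR over control was above 0 for 28 of the 30 members after loess (52.9% of all genes). After median centring it was above 0 for 13 of 30, and in the fit without array 3 the ratio was above 0 for 14 of 30. The median over members was 0.39 after loess and 0.01 over all genes. It was -0.03 after median centring, -0.05 in the fit without array 3, and 0.77 in the fit without array 4. On arrays 1 to 4 the medians after loess were 0.32, -0.08, 1.54 and -0.20, and those of all genes lay between -0.01 and 0.02. The ratio was above 0 in 24, 13, 29 and 8 of the 30 members on arrays 1 to 4, against 52.7%, 52.2%, 52.1% and 49.1% of all genes. Array 3 gave the highest of the 4 ratios in 28 members (26.6% of all genes) and a ratio above 1 in 27 (3.27%). The mean of the other 3 arrays had a median of 0.01 and was above 0 in 17 members, against 10758 of all 20160 genes. It differs from the fit without array 3, which keeps the dye term. There array 4, the only array left with IUGR in Cy3, counted as much as arrays 1 and 2 together.

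After median centring the medians were 1.18, -0.73, 0.55 and -1.02 on arrays 1 to 4, and those of all genes tested were 0.12, -0.11, -0.11 and -0.08. Array 3 was then the highest in 6 members (32.2% of all genes), and its ratio was above 1 in 8 (19.4% of all genes). The sign of the median stayed the same on each array, but its size moved with the difference in brightness between the channels. With channel brightness as a covariate after loess, the members' median ratio was 0.36, with 28 of 30 above 0. The part of brightness in the difference between the 2 normalizations was not tested. The median of array 1, where the IUGR channel was the brighter, was higher under median centring than under loess, and those of the other 3 arrays, where it was the dimmer, were lower. With the processed signals of the scanner software and loess, the medians were 0.31, -0.17, 1.63 and -0.13.

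**Figure D2:**
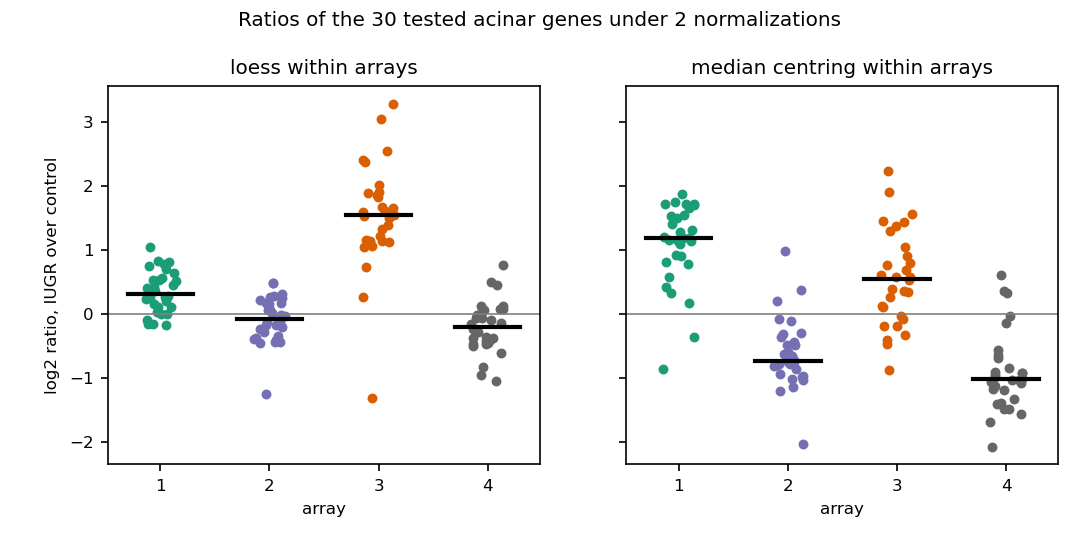
Log2 ratios of IUGR over control for the 30 tested acinar genes on arrays 1 to 4, after loess (left) and after median centring (right) within arrays. Points are genes and bars are medians. After loess array 3 stands at 1.54 and the other arrays between -0.20 and 0.32, whereas after median centring arrays 1 and 3 lie above 0 and arrays 2 and 4 below.

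None of the 30 members was called, 0 of 30 against 0 of all genes. At an unadjusted p under 0.05, 3 of 30 members were higher (Bhlha15, Rbpjl and Spink3), near the 7.12% of all genes, and 0 were lower, against 6.57%. All 4 arrays were above 0 for Amy2, Ctrc and Spink3, 3 of 30 members, against 11% of all genes, and all 4 were below 0 for 0 members, against 9.69%. Over 17 or 18 other settings per gene, 12 members kept the sign of their fitted ratio in every one. These were Ctrc, Cela1, Cela2a, Amy2, Amy1a, Pnliprp2, Sycn, Cuzd1, Spink3, Bhlha15 and Rbpjl, which were above 0, and Gp2, which was below. The other 18 changed sign in at least 1 setting. Median centring changed the sign of 15 of the 30 and the fit without array 3 that of 16. Some settings, such as leaving out the dye term, could not move a ratio. The number of settings therefore does not measure how firm a sign is. The same count over all genes was not made.

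**Figure D3:**
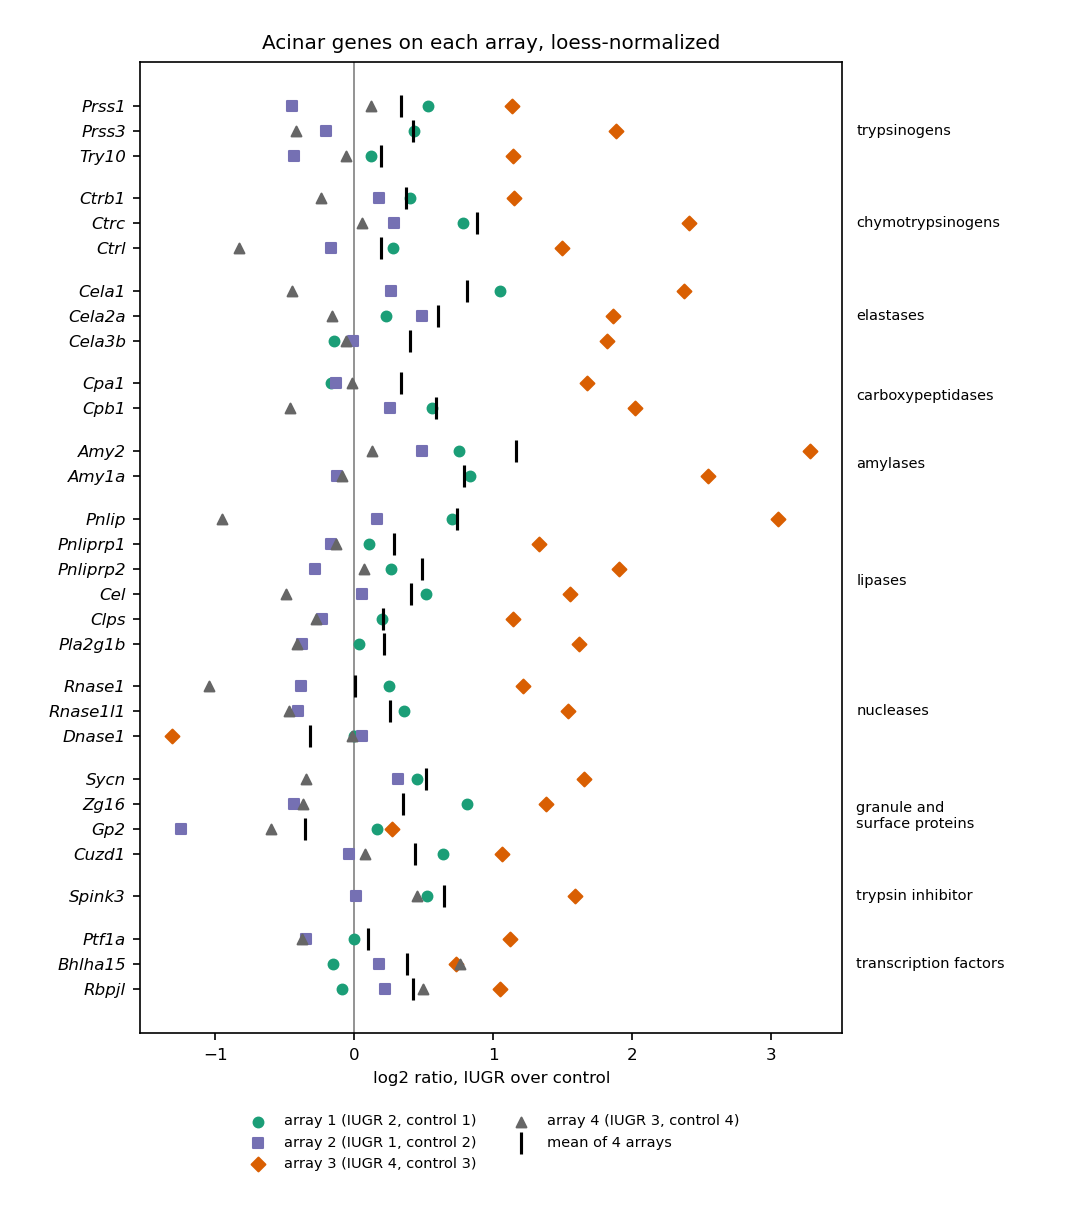
Log2 ratio of IUGR over control on each array after loess, for the 30 tested acinar genes ordered by role. Symbols are arrays, named by the samples they hold, and vertical ticks are means of 4 arrays. Array 3 lies to the right of the other 3 arrays in 28 genes. Dnase1, at -1.31 on array 3, and Bhlha15 do not share that pattern.

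The trypsinogens, whose products start the activation of the other zymogens, had means of 0.19 to 0.42 after loess. Prss1 had levels of 16.68, 16.39, 17.32 and 17.77 in IUGR replicates 1 to 4 and of 15.86, 17.13, 16.64 and 17.20 in control replicates 1 to 4. IUGR replicate 4 was highest and control replicate 1 lowest, and the groups overlapped. The ratios on arrays 1 to 4 were 0.53, -0.45, 1.13 and 0.12, with a mean of 0.33 ± 0.24 (SE, n = 4 arrays; limma adjusted p = 0.452). Prss3 had 0.43, -0.21, 1.88 and -0.42, with a mean of 0.42, and -0.15 in the fit without array 3. Try10 was read by 2 probes at chr4:69053166-69053225 and chr4:69055870-69055929 (rn4). Its brighter probe gave 0.12, -0.43, 1.14 and -0.06 and its other probe 0.52, -0.31, 1.70 and -0.06, so both had the same sign on each array. After median centring the means of Prss1, Prss3 and Try10 were -0.13, -0.03 and -0.26.

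Among the chymotrypsinogens, Ctrc was above 0 on all 4 arrays. Chymotrypsin C, its product, cleaves trypsinogen within the gland and limits its activation. Ctrc levels were 13.48, 13.17, 14.41 and 14.63 in IUGR replicates 1 to 4 and 12.39, 13.19, 12.22 and 14.35 in control replicates 1 to 4. Control replicate 4 lay just under the high IUGR samples, and IUGR replicate 2 lay just under control replicate 2. The ratios were 0.78, 0.29, 2.41 and 0.06, with a mean of 0.88 ± 0.40 (SE, n = 4; limma adjusted p = 0.339). The fit without array 3 gave 0.30. Ctrb1, a major chymotrypsinogen, had 0.40, 0.17, 1.15 and -0.24, and Ctrl had 0.28, -0.17, 1.49 and -0.83. The mean of Ctrl was 0.19 after loess and -0.24 after median centring, and that of Ctrb1 was 0.37 and -0.07.

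The elastases cleave proteins next to small residues. Cela1 had levels of 12.60, 12.23, 13.11 and 13.35 in the 4 IUGR samples and of 11.18, 12.33, 10.98 and 13.57 in the 4 control samples. Its highest and its lowest sample were both controls. The ratios were 1.05, 0.26, 2.37 and -0.45, with a mean of 0.81 ± 0.48 (SE, n = 4; limma adjusted p = 0.390). The fit without array 3 gave 0.10. Cela2a had 0.23, 0.48, 1.86 and -0.16. Cela3b had -0.15, -0.01, 1.82 and -0.06, so 1 array alone put its mean at 0.40, and without it the mean was -0.07.

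The carboxypeptidases remove single residues from the end of a peptide, aromatic and aliphatic ones for Cpa1 and basic ones for Cpb1. Cpa1 showed the pattern of Cela3b, with ratios of -0.17, -0.13, 1.67 and -0.02 and a mean of 0.34. The fit without array 3 gave -0.08. Cpb1 had 0.56, 0.25, 2.02 and -0.47, with a mean of 0.59 ± 0.41 (SE, n = 4; limma adjusted p = 0.442). Without array 3 the mean of the others was 0.11 and the fit gave -0.03. Cpb1 levels ran from 16.17 to 17.95 in the IUGR samples and from 15.61 to 17.30 in the control samples.

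Amy2, which encodes pancreatic amylase and digests starch, had the largest mean ratio of the members. Its brighter probe, at chr2:209469274-209469330 (rn4), had levels of 16.39, 16.02, 16.77 and 18.22 in IUGR replicates 1 to 4 and of 15.27, 15.90, 14.94 and 16.64 in control replicates 1 to 4. IUGR replicate 4 stood above all others, control replicates 1 to 3 lay below every IUGR sample, and control replicate 4 lay among the IUGR samples. The ratios were 0.75, 0.49, 3.28 and 0.13, with a mean of 1.16 ± 0.52 (SE, n = 4; limma adjusted p = 0.339). The fit without array 3 gave 0.37. The second probe, whose sequence is given above, had ratios of 0.52, 1.84, 4.27 and 0.90, above 0 on all 4 arrays as well, with a mean of 1.88.

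After median centring the mean of the brighter Amy2 probe was 0.71. Amy1a, the gene of salivary-type amylase, which pancreatic transcripts resemble closely, had ratios of 0.83, -0.13, 2.54 and -0.09. Its mean was 0.79 ± 0.46 (SE, n = 4; limma adjusted p = 0.384), against 0.13 in the fit without array 3 and 0.36 after median centring. The array 3 ratios of Amy2 and Amy1a correspond to 9.72-fold and 5.82-fold.

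Of the 6 genes of fat digestion, Pnlip spread the most. It encodes pancreatic triglyceride lipase, and its levels were 11.68, 11.10, 13.15 and 13.69 in IUGR replicates 1 to 4 and 10.39, 11.52, 10.64 and 14.10 in control replicates 1 to 4. Control replicate 4 and IUGR replicates 3 and 4 stood above the other 5 samples. The SD of 1.22 within IUGR and 1.70 within control exceeded the mean ratio of 0.74 ± 0.66 (SE, n = 4; limma adjusted p = 0.534). The ratios were 0.70, 0.16, 3.05 and -0.95. Without array 3 the mean of the others was -0.03 and the fit gave -0.26.

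The other lipase genes had smaller array 3 ratios. Pnliprp1 and Pnliprp2 are lipase-related genes, and the latter acts on milk fat in the suckling period. They had ratios of 0.11, -0.17, 1.33 and -0.13 and of 0.26, -0.29, 1.90 and 0.07. Cel, the bile salt-dependent lipase, had 0.51, 0.06, 1.55 and -0.49. Clps, the colipase that anchors Pnlip to the fat droplet, had 0.20, -0.24, 1.14 and -0.28, and Pla2g1b, the secreted phospholipase, had 0.04, -0.38, 1.61 and -0.41. Their means lay between 0.21 and 0.49 after loess. After median centring only Pnliprp2, at 0.09, stayed above 0 among these 5, with the others between -0.25 and -0.03.

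Dnase1, 1 of the 2 members with a mean below 0, is among the nucleases. Rnase1, pancreatic ribonuclease, had ratios of 0.25, -0.39, 1.21 and -1.05, with a mean of 0.01, and Rnase1l1, a related gene, had 0.35, -0.41, 1.54 and -0.47. Dnase1, an endonuclease of the digestive tract and kidney, had levels of 6.58, 6.33, 6.56 and 6.68 in the IUGR samples and of 6.33, 6.52, 7.99 and 6.58 in the control samples. Control replicate 3 alone stood above the rest. Dnase1 ratios were -0.0025, 0.06, -1.31 and -0.02, with a mean of -0.32 ± 0.22 (SE, n = 4; limma adjusted p = 0.441). The fit without array 3 gave 0.0041. Control replicate 3 was the sample lowest in 14 other members.

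Sycn (syncollin), Zg16 and Gp2 are proteins of the zymogen granule membrane or matrix, and Cuzd1 is a granule membrane protein too. Sycn had ratios of 0.45, 0.31, 1.65 and -0.35, Zg16 had 0.81, -0.44, 1.38 and -0.37 and Cuzd1 had 0.63, -0.04, 1.06 and 0.08. The mean was 0.52 for Sycn, 0.35 for Zg16 and 0.43 for Cuzd1, and after median centring 0.09, -0.08 and 0.47. Gp2, the glycoprotein that lines the granule membrane, was lower in mean, at -0.35 ± 0.28 (SE, n = 4; limma adjusted p = 0.490) after loess and -0.74 after median centring.

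Gp2 levels were 10.60, 10.06, 11.60 and 11.13 in IUGR replicates 1 to 4 and 9.90, 11.84, 10.86 and 12.20 in control replicates 1 to 4. Control replicates 2 and 4 were its highest samples, and control replicate 1 its lowest. Its ratios were 0.16, -1.25, 0.27 and -0.60. The array 3 ratio of Gp2 lay at the 74th percentile of all genes, whereas 27 members had array 3 ratios above 1.

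Spink3, the trypsin inhibitor that protects the gland from early activation, was above 0 on all 4 arrays through its brighter probe. The levels were 12.45, 12.13, 13.64 and 13.13 in IUGR replicates 1 to 4 and 11.61, 12.45, 11.54 and 13.19 in control replicates 1 to 4. Control replicate 4 lay between the high IUGR samples. The ratios were 0.53, 0.01, 1.59 and 0.45, with a mean of 0.64 ± 0.22 (SE, n = 4; limma unadjusted p = 0.0328, adjusted p = 0.339). The fit without array 3 gave 0.36, and the mean was 0.25 after median centring. The other Spink3 probe, with an accession of its own, had -0.04, 0.08, 0.87 and 0.29.

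The ranges of the transcription factors over the 8 samples were 1.93 for Ptf1a, 1.62 for Rbpjl and 1.07 for Bhlha15, against the median of 2.00 over all members. Ptf1a had levels of 8.54, 8.69, 9.41 and 8.98 in IUGR replicates 1 to 4 and of 8.69, 8.89, 7.86 and 9.78 in control replicates 1 to 4. Its highest and its lowest sample were controls. Its ratios were -0.0027, -0.35, 1.12 and -0.37, with a mean of 0.10 ± 0.26 (SE, n = 4; limma adjusted p = 0.841). The fit without array 3 gave -0.28.

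Rbpjl, the acinar partner of Ptf1a, had levels of 7.77, 7.35, 8.69 and 8.12 in the IUGR samples and of 7.44, 7.55, 7.07 and 8.19 in the control samples. The ratios were -0.09, 0.22, 1.05 and 0.49, with a mean of 0.42 ± 0.13 (SE, n = 4; limma unadjusted p = 0.0227, adjusted p = 0.339). Bhlha15 had levels of 11.95, 11.44, 11.999 and 11.66 in the IUGR samples and of 11.60, 11.78, 10.93 and 11.24 in the control samples. It had the narrowest range of the members, and control replicates 3 and 4 were its lowest samples. The ratios of Bhlha15 were -0.16, 0.18, 0.73 and 0.76, with a mean of 0.38 ± 0.09 (SE, n = 4; limma unadjusted p = 0.0101, adjusted p = 0.339), and 0.03 after median centring. Each SE is that of the fit, with the dye difference taken out.

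Among the members, the ratios of arrays 1 and 3 correlated at r = 0.56 across the 30 genes, against -0.23 across all 20160. Those of arrays 3 and 4, which shared the dye orientation, correlated at -0.15 among the members and at 0.63 across all genes, and those of arrays 2 and 3 at 0.40 and 0.63. Genes are not independent replicates and share the samples and the normalization, so these are descriptions.

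Other secretory products of the acinar cell shared the array pattern. Of 16 listed genes, 14 were tested and 11 had a mean ratio above 0, with a median of 0.42 after loess and 0.08 after median centring. The medians on arrays 1 to 4 were 0.20, -0.16, 1.36 and 0.06, 10 of the 14 had an array 3 ratio above 1, and 0 were called. Tff2, a trefoil peptide of mucosal surfaces, had 0.02, 0.30, 2.92 and 0.75, with a mean of 1.00 ± 0.36 (SE, n = 4; limma adjusted p = 0.339). The probe named Spink1 on the array, which is not the Spink3 probe whose accession RefSeq names Spink1, had 0.54, 0.72, 2.40 and 0.22. Aqp8, an acinar water channel, had 0.54, 0.56, 1.295 and -0.02. Lgals2, a galectin, had 0.22, -0.82, -1.19 and -0.43.

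In 2 lists of genes that act in acinar cells but are shared with other cells, the array 3 median was below the members' 1.54. The stimulus and secretion machinery, with the cholecystokinin and muscarinic receptors, calcium release channels and granule fusion proteins, had 9 of 16 tested genes above 0 and a median of 0.02. Its array medians were -0.07, -0.04, 0.23 and -0.02, and array 3 was the highest in 7 of the 16 (26.6% of all genes). Stxbp2, a regulator of granule fusion, had 0.09, 0.53, 0.50 and 0.04, above 0 on all 4 arrays. Rab3d, a small GTPase of the granule, had -0.23, -1.06, -0.61 and -0.06, below 0 on all 4 arrays. Other regulators of the acinar and endoderm programme, such as Tcf3 and Gata6, had 9 of 13 above 0 and a median of 0.04, with array 3 at 0.05. In both lists 0 genes had an array 3 ratio above 1.

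The general secretory pathway, which beta cells use as well, had 14 of 16 genes above 0, with a median of 0.25 after loess and -0.05 after median centring. Its array medians were 0.00084, 0.37, 0.46 and 0.10, and array 3 was the highest in 9 of the 16 (26.6% of all genes). Sec61a1, the channel of the endoplasmic reticulum through which secreted proteins pass, had 0.21, 0.83, 0.85 and 0.33, and Spcs3, a signal peptidase subunit, had -0.06, -1.17, -0.90 and -0.36. Neither was called (limma adjusted p = 0.339 for both).

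**Figure D4:**
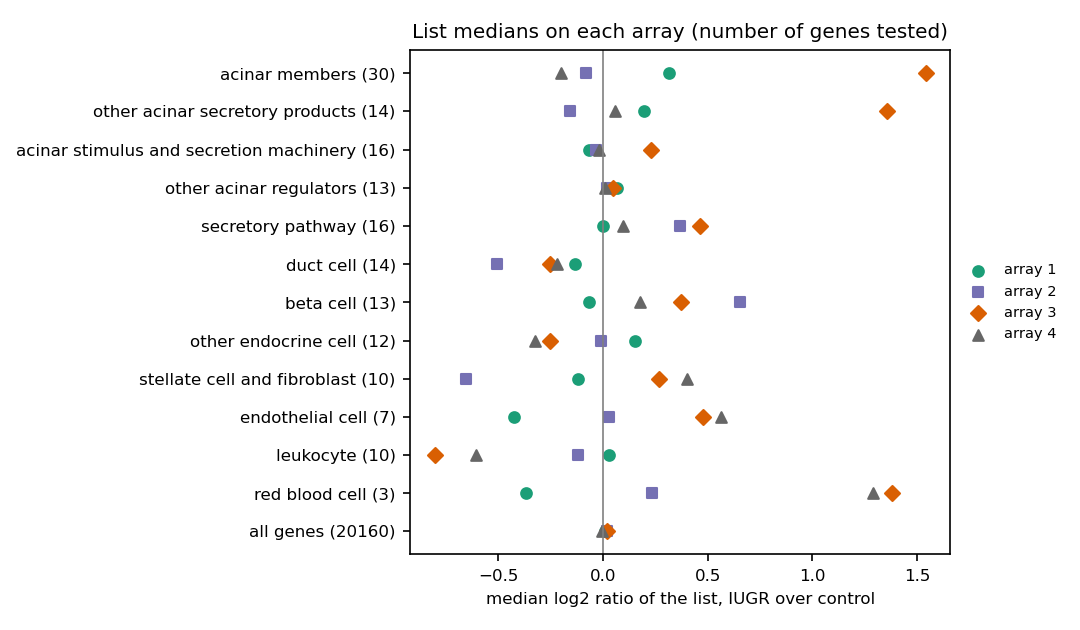
Median log2 ratio of IUGR over control on each array after loess, for the acinar members, other gene lists and cell type markers, with the number of genes tested in brackets. The members and the other acinar secretory products stand at 1.54 and 1.36 on array 3. The red blood cell markers stand at 1.38 on array 3 and 1.29 on array 4, and all genes lie near 0.

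Markers of other cells moved between the samples too, and their part in the acinar result was not tested. The 14 duct cell markers had 11 means below 0 and a median of -0.19 after loess, with array medians of -0.13, -0.51, -0.25 and -0.22. Of the 4 with the smallest p, Krt19 and Cftr had means of -0.64 and -1.05, below 0 on all 4 arrays. The 3 above 0, named here after their values were seen, were Krt8 at 0.27, Krt18 at 0.13 and Sox9 at 0.05. The beta cell list had 11 of 13 above 0 and a median of 0.30, or -0.06 after median centring.

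On array 3 the 10 leukocyte markers had a median of -0.80, and 3 of the 10 were above 0 there. Cd79b, a B cell gene, was at -2.12 and Lyz2, a myeloid gene, at -0.91, whereas Cd163, a macrophage gene, was at 1.15. The median level of the list was highest in control replicate 3, at 0.88 relative to the probe means, against -0.40 to 0.20 in the other 7 samples. Of the red blood cell markers, 3 were tested, and they were highest in IUGR replicate 4, at 1.26, against -0.53 to 0.38 elsewhere. Control replicate 3 and IUGR replicate 4 are the samples of array 3. Stellate cell, endothelial and other endocrine markers had array 3 medians of 0.27, 0.48 and -0.25.

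Among the 10 genes outside the list whose ratios lay nearest to the members' array medians, by Euclidean distance over the 4 arrays, were Tmed6, Retn, Vegfb, Adipoq, Eml1, Kcne1, Rnase1l2, Serpini2 and Rnase6. The distances ran from 0.28 for Tmed6 to 0.53 for Rnase6, among 15079 tested genes with a symbol, and 9 of the 30 members lay within the largest of them. Tmed6 and Serpini2 stand in the list of other acinar secretory products. Retn and Adipoq encode the adipocyte hormones resistin and adiponectin. Adipoq had ratios of 0.40, -0.50, 1.72 and -0.16.

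The start regions of the members were searched for short motifs, since the members were high and low in the same samples. RefSeq promoters of 300 bases, from 250 before to 50 after the start on GRCr8, were found for 28 of the 35 listed genes and for 33469 genes in all. The TATA motif TATAAA, on either strand, was in 46.4% of the member promoters and in 14.2% of all. On the sense strand and starting 40 to 21 bases before the start it was in 28.6% and 1.4%. The E-box CANNTG, which is the same on both strands, was in 85.7% and 72.1%. TGGGAA, the core of the box that the Rbpj family reads, was in 60.7% and 25.7%.

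The PTF1 complex is known to bind an E-box and such a box side by side. The pair CANNTG with TGGGAA on either strand, starting within 25 bases of each other, was in 8 of 28 member promoters (28.6%) and in 6.3% of all. CATATG, a form of the E-box, was in 0% and 4.1%, and CAAGGTCA was in 3.6% and 1.5%. Below are stretches from 6 of the 8, upstream of the start and 5′ to 3′ on the strand of the gene, with 1 CANNTG and 1 TGGGAA (or TTCCCA, its other strand) in capitals. They are the promoters of tested members with the pair wholly before the start. In Ctrc the pair lies after the start, and Try5 had no probe. A match is a string of letters and was not tested for binding.
Ctrb1, chr19:56567148-56567204, minus strand: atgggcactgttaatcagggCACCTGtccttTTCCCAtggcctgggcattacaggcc
Ctrl, chr19:50739129-50739199, minus strand: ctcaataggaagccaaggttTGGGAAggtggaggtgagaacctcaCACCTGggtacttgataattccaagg
Cel, chr3:32289079-32289145, minus strand: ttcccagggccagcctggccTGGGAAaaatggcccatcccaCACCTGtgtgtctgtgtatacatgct
Rnase1, chr15:26837276-26837342, minus strand: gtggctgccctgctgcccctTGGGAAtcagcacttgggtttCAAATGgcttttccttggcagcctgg
Prss3 (RefSeq Prss3b), chr4:70842383-70842442, minus strand: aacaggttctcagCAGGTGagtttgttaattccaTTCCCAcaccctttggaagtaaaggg
Rbpjl, chr3:173553426-173553493, plus strand: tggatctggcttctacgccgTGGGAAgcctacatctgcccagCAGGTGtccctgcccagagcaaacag

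The motifs in capitals start 11 bases apart in Ctrb1, 25 in Ctrl, 21 in Cel, Rnase1 and Prss3 and 22 in Rbpjl. Cel, Rnase1 and Rbpjl each held 2 pairs, and only the pair nearer the start is in capitals. In all of these the other pair starts closer together, so the repeat of 21 and 22 depends in part on that choice. Of the motifs in capitals, the E-box comes first in Ctrb1 and Prss3 and second in the other 4 stretches. In the other pair of Cel the E-box comes first. The promoters of Ptf1a, Bhlha15, Pnlip, Dnase1 and Gp2 held no such pair within this window, and Gp2 and Pnlip each had TATAAA starting 31 bases before the start.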

How the data were processed

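The authors hybridised IUGR and control samples to two-colour Agilent arrays. Per the file headers, Agilent Feature Extraction 10.10.1.1 read them. The deposited scanner files give mean signals, local backgrounds and processed signals as intensity, and a log10 ratio of Cy5 over Cy3. The deposited value table gives log2 ratios, which, set against the scanner values, are Cy5 over Cy3, with medians from -0.029 to 0.008 and normalization not given in the sources used here. The submitters' processing notes name limma without a version.

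Here, limma 3.58.1 in R 4.3.3 applied normexp (offset 50) and loess, with control spots at weight 0. Outlying local backgrounds were set to the channel median (222, 44, 145 and 52 spots on arrays 1 to 4), outlier spots were left out and replicate spots averaged. The probe of highest mean intensity stood for a gene. Genes measured on all 4 arrays and well above background in 2 of 4 IUGR or 2 of 4 control channels were tested, 20160 in all, 15109 with a symbol. The fit held a dye term, 2 residual degrees of freedom and Benjamini-Hochberg adjustment over all genes at 0.05. On simulated data of 20160 genes the fit called 62.7% of the genes given a true log2 ratio of 1 and 92.5% of those given 2. The shifted genes were drawn from all genes, whose SDs between replicates were smaller than those of the members. These shares therefore do not carry over to the members.

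Members, gene lists and tests were chosen with earlier results of these data known. Named genes were all members with a probe, up to 4 genes of smallest p per list and the 10 nearest genes. The alternatives were other background corrections, normalizations, filters, probe rules, covariates and weights, the deposited ratios and leaving out each array. Of the nearest genes, 1 is not reported here.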

Additional observations from a re-analysis of the deposited data

Results flagged for a closer look

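Within a group of 4 values, a sample was taken to stand apart where its gap to the nearest other value exceeded Dixon's limit, which chance alone passes in about 1 of 20 groups. Of 30 sets of 4 ratios, 3 did so, all through array 3. Cela3b was at 1.82 there against -0.15 to -0.01 on the other arrays, and Cpa1 was at 1.67 against -0.17 to -0.02. Dnase1 was at -1.31 against -0.02 to 0.06. Of 60 sets of 4 levels, 1 did so, with Dnase1 at 7.99 in control replicate 3 against 6.33 to 6.58 in the other control samples.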

How the results depend on the processing

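No acinar member was called under any alternative that was run (0 in each). Of the 18 alternatives, median centring in place of loess and the fit without array 3 moved the members' median most. The median ratio of the members, 0.39, lay between 0.34 and 0.40 in the other alternatives that kept all 4 arrays, the deposited log2 ratios and the processed signals included. Among these, leaving out the dye term or using a replicate block could not move it, as the terms are balanced over the arrays. Leaving out 1 array at a time gave medians of -0.05 to 0.77 and 14 to 28 members above 0, with the lowest values without array 3 and the highest median without array 4. Median centring gave -0.03 and 13. It also gave 15 calls among all genes, and channel brightness as a covariate gave 8, against 0. The secretory pathway median was -0.054 with median centring. The median of the other acinar regulators, 0.04, was 0.090 with processed signals, 0.0049 with outlying backgrounds left out and 0.0092 with them kept as measured. The level of IUGR replicate 4, 0.82, was 0.17 with each channel less its median, an alternative added after the data were seen.

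With median centring the mean ratio turned below 0 for Prss1 -0.13, Prss3 -0.029, Try10 -0.26, Ctrb1 -0.074, Ctrl -0.24, Cela3b -0.025, Cpa1 -0.11, Pnliprp1 -0.14, Cel -0.031, Clps -0.24, Pla2g1b -0.25, Rnase1 -0.45, Rnase1l1 -0.13, Zg16 -0.083 and Ptf1a -0.088. Leaving out 1 array at a time, means ran over both signs for Rnase1 -0.56 to 0.57, Prss3 -0.15 to 1.00, Try10 -0.11 to 0.49, Ctrl -0.39 to 0.77, Cela3b -0.069 to 0.87, Cpa1 -0.083 to 0.76, Cpb1 -0.031 to 1.21, Pnlip -0.26 to 1.74, Pnliprp1 -0.082 to 0.65, Cel -0.10 to 0.92, Clps -0.15 to 0.56, Pla2g1b -0.29 to 0.72, Rnase1l1 -0.25 to 0.75, Dnase1 -0.64 to 0.0041, Zg16 -0.090 to 0.78 and Ptf1a -0.28 to 0.47. These values with 1 array left out are those of the fit with the dye term and not plain means of the ratios. Rnase1 was -0.014 with offset 0, and Ptf1a was -0.13 with outlying backgrounds left out or kept as measured. The cause of these changes was not tested.

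The replicate numbers of the labels are crossed on the arrays, and same-numbered samples correlated at -0.05, -0.28, 0.09 and -0.17 across genes. Dye effects were not taken out, so these values cannot decide whether the numbers pair the samples. No pairing by number entered the main fit. A replicate block without the dye term cannot move the mean ratios, as its terms are balanced over the 4 arrays. The members' median thus stayed at 0.39, with 0 calls. With this block, 13 of 30 members had an unadjusted limma p under 0.05, against 14.4% of all genes. That block takes up the difference between arrays 1 and 2 and the difference between arrays 3 and 4. Its p-values therefore leave out this spread, and as the members share the samples, their count is only a description. The fit with the dye term and without array 4 gave a members' median of 0.77. Array 3 was then the only array left with IUGR in Cy3. That fit had no measure of the spread between arrays of this orientation, so its p-values are not given. Of the probes, 61.8% to 77.2% per channel were well above background, and a dim probe such as that of Dnase1 limits what its ratio shows.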
